A study of Xenopus laevis with 18 samples.

Results

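Normal gastrulation of Xenopus laevis, the African clawed frog, was described here from whole embryos that had received water alone, with 3 late gastrula arrays set against 3 early gastrula arrays. These are 6 of the 18 arrays of the study, taken by their treatment and stage labels and by no measured value. Late gastrulae were collected 13.5 h after fertilization and early gastrulae 9 h after it. All had been injected in the animal hemisphere at the one-cell stage, in a volume of 9.2 nL without RNA, and each sample pooled 20 embryos of mixed cell types. The study used these embryos as controls for embryos given 0.5 ng of mRNA for Gam1, a protein of an avian adenovirus that blocks SUMO conjugation. Early neurulae, collected 16.5 h after fertilization (3 further water arrays), serve below only to show where a level stood at the next stage. RNA was hybridised to Affymetrix GeneChip arrays for X. laevis, in which a 3′ labelling kit primes from the poly(A) tail, so a value reports polyadenylated RNA.

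The frog egg is loaded with RNA by its mother, and its early divisions run without transcription. The genome is switched on at the midblastula transition, after which maternal RNAs are removed and the embryo's own genes take over. During gastrulation mesoderm and endoderm move inside under Nodal, Wnt, FGF and BMP signals, and the layers are divided into notochord, somites, gut, neural plate, neural crest and epidermis. X. laevis is an allotetraploid, so most genes exist as a long (.L) and a short (.S) homeologous copy, and each copy is counted below as a gene copy of its own.

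The deposited values are log2 intensities after quantile normalization. All arrays share 1 lowest value, 2.07, and 1 highest, 16.13, and values near 2.07 are called the floor. A change against a stage at the floor is only a lower limit of the true one. Within late gastrulae the arrays correlated across probe sets at 0.965 to 0.977, within early gastrulae at 0.959 to 0.970, and between the stages at 0.736 to 0.872. The comparison was made within pairs of equal replicate number, and a change below is the mean log2 difference over 3 pairs. The value after ± is the moderated SE of limma. It draws the spread of each probe set toward that of other probe sets of like intensity. For a gene with widely spread pairs it can be smaller than the SE of its own 3 differences. The early replicate 2 array lay farthest from the late stage for 51.1% of the probe sets that rose and 52.1% of those that fell, and the late replicate 1 array lay farthest from the early stage for 59.6% and 59.3%. The pairs therefore differed in the distance between the stages, and values are given by replicate below, in the order 1, 2 and 3.

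In all, 56.5% of the array moved. Of 23630 probe sets, 5878 were higher in late than in early gastrulae (24.9%) and 7480 were lower (31.7%), by limma with the replicate as a block and a Benjamini-Hochberg adjusted p under 0.05. Changes of at least 1 on the log2 scale made up 4295 of the rises and 5212 of the falls, and changes of at least 4 made up 810 rises and 354 falls, so the largest steps were mostly upward. The median change over all probe sets was -0.08. The split depends on the scale: centred on the ribosomal protein genes, 1863 probe sets were higher and 18490 lower, with a median change of -1.79, and centred on the spiked hybridization controls 5441 were higher and 8790 lower. All changes below are on the deposited scale, relative to the rest of the RNA on the array, and centring on the ribosomal protein genes lowers every change by 1.71, so that a smaller rise turns into a fall. Between early neurula and late gastrula the same kind of test called 0% of the probe sets, although 9427 had an unadjusted p under 0.05. A fit of all 9 water arrays called 3890 for that later step.

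**Figure D1:**
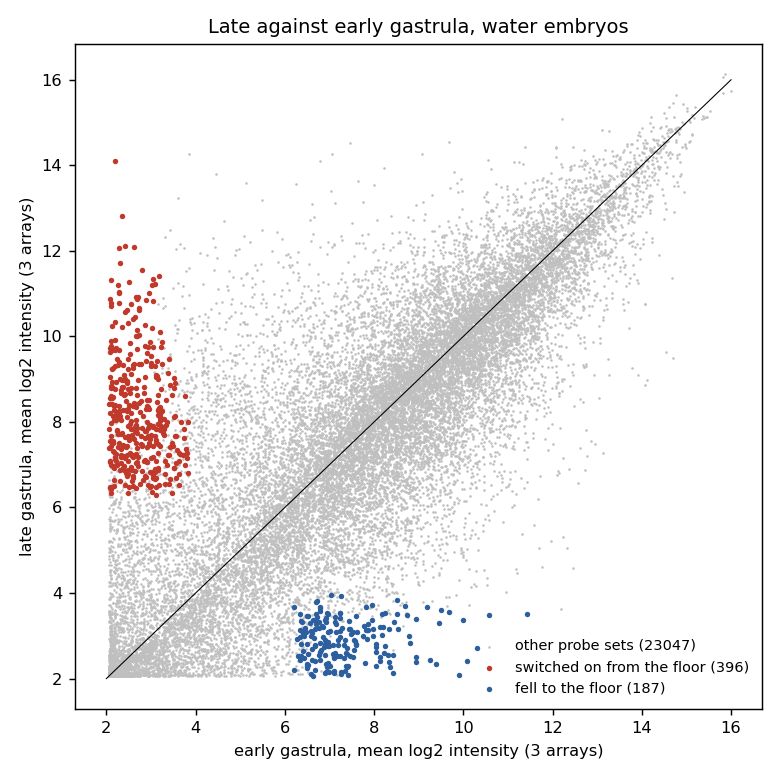
Mean log2 intensity of each probe set in late gastrulae (vertical axis) and early gastrulae (horizontal axis), 3 water arrays per stage. Grey points are the other probe sets. Red points are the 396 switched on and blue points the 187 that fell, and they lie along the left and lower edges. For these classes the floor means under 4 in every array of the low stage.

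The labelled stages were checked against marker genes. Genes that open gastrulation were present in early gastrulae, where the homeobox genes mix1.L and gsc.L stood at 12.19 and 10.12, and sia1.L, the Wnt-induced Siamois gene, at 6.63. In late gastrulae mix1.L stood at 9.47, sia1.L at 2.07 and gsc.L at 9.10, a change not called for gsc.L (adjusted p = 0.189). Also present early were chrd.1.S (10.55), tbxt.S (9.45) and tbxt.L (6.56). These went the other way and were higher in late gastrulae, at 12.59, 12.59 and 12.72. Genes of later territories were higher in late gastrulae, with myod1.S at 9.86 in late and 3.26 in early gastrulae and sox2.L at 11.87 in late and 7.56 in early gastrulae. The crest gene snai2 was still weak in late gastrulae, at 5.77 for its S copy and 3.54 for its L copy. Genes of differentiated cells, such as gap43.L, hbg1.L and serpina1.L, lay at or near the floor in both stages. Exceptions in that list were serpina1.S, at 6.09 in late gastrulae and 6.26 in early gastrulae, the globin gene hba3.L, which rose by 0.37 ± 0.07 to only 3.15 and lost its call in the fit of all 9 water arrays (adjusted p = 0.353), syt1.L, a vesicle protein gene, which rose by 7.82 ± 0.19 (adjusted p = 0.00479), and tf.L, the transferrin gene, which rose by 3.93 ± 0.58 (adjusted p = 0.0127).

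A class of 396 probe sets (1.68%) lay at 6 or more in every late array and under 4 in every early array and is called switched on. They stand for 151 named gene copies, with 219 probe sets unnamed here. Their median level was 8.00 in late gastrulae and 2.67 in early gastrulae, and in early neurulae all 3 arrays stayed at 6 or more for 390 of them. The opposite class, 187 probe sets (0.791%) that fell to under 4 from 6 or more, stands for 77 named gene copies, and 167 of its probe sets were still under 4 in every early neurula array. Both classes were chosen by these same values, so their sizes are a description. A whole embryo was measured, and more cells of a type cannot be told apart from more RNA per cell. The counts of the gene lists below stand against 24.9% of all probe sets higher and 31.7% lower. That base is unlike the lists, since it includes unnamed probe sets, while a list takes 1 probe set per named gene copy. Of 9149 named gene copies, 2407 had a probe set called higher and 3346 had 1 called lower. Some lists share members, so a gene copy can be counted in more than 1 list.

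Among the mesoderm genes, those of the posterior and presomitic mesoderm showed some of the largest rises of the array. The list of pan-mesodermal and posterior growth genes held 31 measured gene copies, of which 19 rose, 2 fell and 10 did not pass the test, with a median change of 3.13 (1.42 centred on the ribosomal protein genes). Mesogenin 1, the bHLH factor of presomitic mesoderm, stood at the floor in early gastrulae and was abundant in late gastrulae. For msgn1.L the arrays read 12.02, 11.84 and 12.32 in late gastrulae, against 2.07, 2.09 and 2.70 in early gastrulae, a rise of 9.77 ± 0.17 (adjusted p = 0.00479). Its homeolog msgn1.S read 10.66, 10.45 and 11.04 in late gastrulae, against 2.16, 2.07 and 2.07 in early gastrulae, so both copies came up from the floor without overlap. The caudal homeobox genes, which pattern the posterior body, followed the same course. The probe set of cdx4.L with the largest change read 11.76, 10.64 and 10.64 in late gastrulae, against 2.07, 2.31 and 2.48 in early gastrulae, and cdx2.L read 11.67, 11.06 and 11.28 in late gastrulae, against 3.25, 2.24 and 3.65 in early gastrulae. In cdx1.S, which rose by 7.70 ± 1.19, early replicate 2 lay at the floor while the other 2 early arrays did not (13.45, 12.96 and 13.17 in late gastrulae, against 6.25, 2.31 and 7.93 in early gastrulae). Brachyury, the T-box gene of nascent mesoderm, was already present in early gastrulae, with unlike levels of its copies across replicates. Its tbxt.S copy read 12.49, 12.52 and 12.75 in late gastrulae, against 9.61, 7.30 and 11.45 in early gastrulae and tbxt.L 12.60, 12.62 and 12.96 in late gastrulae, against 6.02, 4.10 and 9.56 in early gastrulae, rises of 3.13 ± 0.86 and 6.16 ± 1.13 (adjusted p = 0.0488 and 0.0195). Both copies were lowest in early replicate 2 and highest in early replicate 3, and neither overlapped with late gastrulae. Left without replicate 1 the adjusted p was 0.0992 for tbxt.L and 0.161 for tbxt.S, and without replicate 2 it was 0.0531 for tbxt.L and 0.0694 for tbxt.S. Without the replicate block tbxt.S was just outside the threshold (adjusted p = 0.0508). The T-box genes vegt and eomes had lower means in late gastrulae, and whether they had a maternal supply was not measured here. Of these only the vegt copies were called. Here vegt.L, the vegetal T-box determinant, fell by 1.09 ± 0.08 (adjusted p = 0.00528), and vegt.S by 0.76 ± 0.16 (adjusted p = 0.0247, or 0.115 in the fit of all 9 water arrays). Both copies of eomes had lower means in late gastrulae without passing the test, with eomes.S at 8.49, 9.70 and 9.62 in late gastrulae, against 12.26, 10.03 and 12.55 in early gastrulae (adjusted p = 0.0751, or 0.0484 without the replicate block).

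Somite and muscle genes came on, structural genes included. That list held 31 measured gene copies, of which 19 rose, 1 fell and 11 did not pass the test, with a median change of 3.68 (1.97 centred on the ribosomal protein genes). Myf5, an early myogenic factor, read 11.46, 11.07 and 11.44 in late gastrulae, against 2.08, 2.11 and 2.15 in early gastrulae for its L copy, a rise of 9.21 ± 0.20 (adjusted p = 0.00479). The related factor myod1.S read 10.35, 9.60 and 9.64 in late gastrulae, against 3.61, 3.47 and 2.69 in early gastrulae, while myod1.L was already above the floor in early replicate 2 (9.03, 8.24 and 8.36 in late gastrulae, against 4.30, 6.65 and 3.63 in early gastrulae). Structural muscle genes were on by late gastrula as well. Cardiac actin actc1.L read 10.79, 9.02 and 9.26 in late gastrulae, against 2.09, 2.09 and 2.18 in early gastrulae and rose by 7.57 ± 0.46, and myosin light chain myl1.L read 9.63, 7.59 and 8.02 in late gastrulae, against 2.07, 2.07 and 2.07 in early gastrulae. In both, late replicate 1 was the highest of the late arrays. By early neurula actc1.L averaged 13.04 and myl1.L 11.52. The probe set used for actc1.L can also take up RNA of related genes, and the other probe set of actc1.L rose by 6.24. Genes that cut the presomitic mesoderm into segments also appeared, with ripply2.2.S, a transcriptional corepressor, rising by 6.93 ± 0.27 and hes5.1.L, a Notch-responsive bHLH repressor, by 7.61 ± 0.39. The forkhead genes of paraxial mesoderm foxc1.L and foxc2.L rose by 6.34 ± 0.15 and 6.34 ± 0.67. Members of later muscle programs stayed near the floor: myf6.S averaged 2.31 in late gastrulae and 2.08 in early gastrulae, and acta1.S 2.26 in late and 2.33 in early gastrulae.

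**Figure D2:**
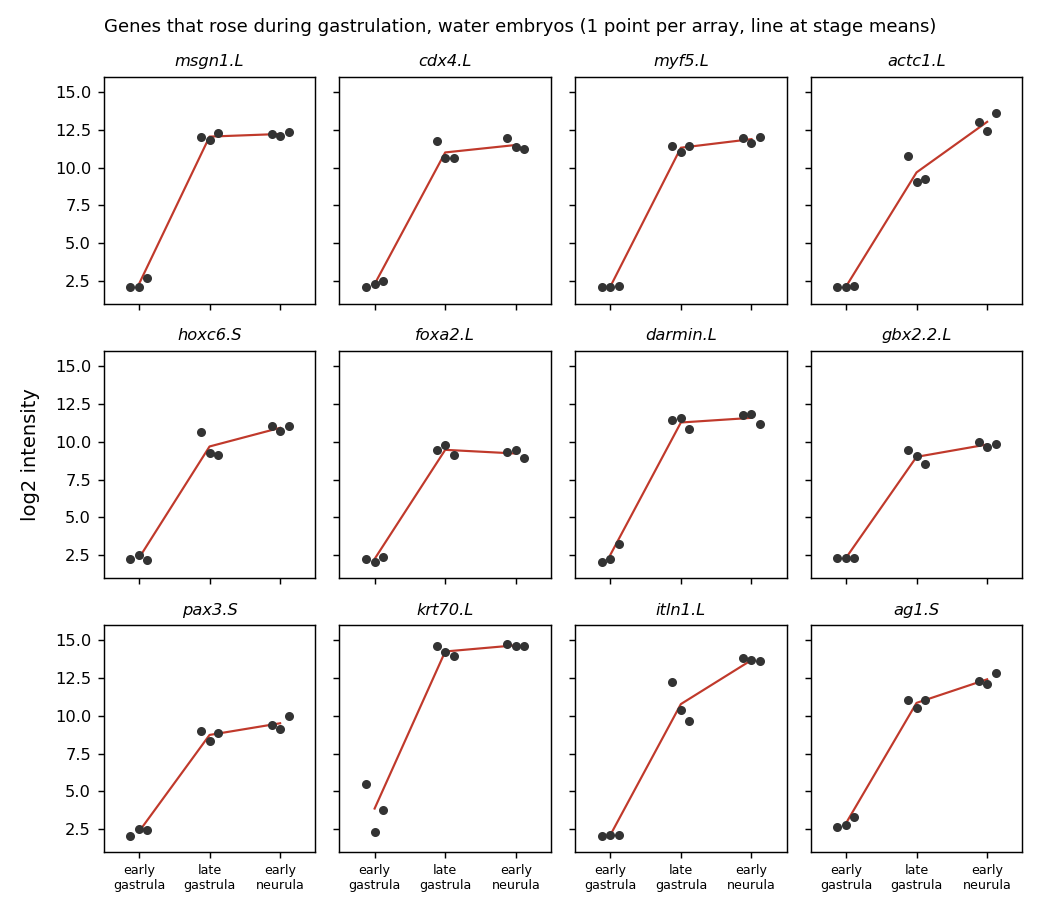
Log2 intensity of 12 genes that rose, by stage (early gastrula, late gastrula, early neurula) in water embryos; each point is 1 array of 3 per stage and the line joins stage means. All 12 stood below 6 in every early gastrula array and above 8 in every late gastrula array, and were chosen as genes that rose in these same arrays.

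Genes of the dorsal axis included some that rose and some that fell. The organizer and notochord lists share members, foxa2.L and not.L among them, so their counts are not separate. Organizer genes numbered 24 measured gene copies, of which 12 rose, 2 fell and 10 did not pass the test, with a median change of 2.10 (0.39 centred on the ribosomal protein genes), and notochord genes 16 measured gene copies, of which 9 rose, 2 fell and 5 did not pass the test, with a median change of 1.75 (0.04 centred on the ribosomal protein genes). The forkhead gene foxa2.L, needed in node, floor plate and endoderm of the mouse, read 9.48, 9.77 and 9.15 in late gastrulae, against 2.25, 2.07 and 2.39 in early gastrulae, a rise of 7.23 ± 0.27 (adjusted p = 0.00479). Sonic hedgehog, the midline signal, read 7.91, 6.14 and 5.70 in late gastrulae, against 2.07, 2.83 and 2.37 in early gastrulae for shh.L. The BMP antagonist chordin rose as well, with chrd.1.S at 12.42, 12.69 and 12.67 in late gastrulae, against 10.71, 9.68 and 11.26 in early gastrulae, and so did the Nodal, BMP and Wnt antagonist cer1.S, at 12.24, 13.42 and 13.53 in late gastrulae, against 8.63, 6.75 and 11.46 in early gastrulae. Centred on the ribosomal protein genes, the rise of chrd.1.S was 0.34 and not called (adjusted p = 0.398). The early arrays of cer1.S spread widely and still lay below the late ones. In contrast the notochord homeobox gene not fell in both copies, by 1.45 ± 0.13 for not.L (adjusted p = 0.00591) and 1.19 ± 0.09 for not.S (adjusted p = 0.00528). Goosecoid, a transcriptional repressor of the organizer, did not pass the test in either copy: gsc.L read 9.05, 9.08 and 9.17 in late gastrulae, against 10.51, 8.70 and 11.17 in early gastrulae and gsc.S 7.97, 8.40 and 8.64 in late gastrulae, against 10.10, 8.66 and 10.56 in early gastrulae (adjusted p = 0.189 and 0.0674). In both copies early replicates 1 and 3 lay above the late arrays and early replicate 2 lay close to them.

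Hox genes, which assign position along the trunk, were off in early gastrulae. Every measured copy averaged under 3 there. The list held 18 measured gene copies, of which 10 rose, 0 fell and 8 did not pass the test, with a median change of 2.60 (0.89 centred on the ribosomal protein genes). The largest rise was that of hoxc6.S, with 10.64, 9.28 and 9.14 in late gastrulae, against 2.22, 2.47 and 2.18 in early gastrulae, a rise of 7.40 ± 0.43 (adjusted p = 0.00484). Other members that rose were hoxb4.S, with 8.81, 8.02 and 8.30 in late gastrulae, against 2.09, 2.43 and 2.31 in early gastrulae, and hoxa7.L, with 9.70, 7.58 and 7.58 in late gastrulae, against 2.43, 2.60 and 2.29 in early gastrulae. Of the more posterior members, hoxa9.S averaged 6.34 in late gastrulae, hoxc10.L 4.87, hoxa11.S 2.31 and hoxd13.S 2.15. Of the anterior members, hoxb2.S averaged 2.47 and hoxa2.S 4.55, levels that cannot be ranked across probe sets. For every Hox copy that was called, late replicate 1 was the highest of the late arrays.

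The endoderm list held 24 measured gene copies, of which 11 rose, 2 fell and 11 did not pass the test, with a median change of 4.01 (2.30 centred on the ribosomal protein genes). Darmin, a peptidase gene of the gut endoderm, read 11.42, 11.57 and 10.85 in late gastrulae, against 2.07, 2.22 and 3.23 in early gastrulae for its L copy, a rise of 8.77 ± 0.46 (adjusted p = 0.00479). The other probe set of darmin.L rose by 5.12. The zinc finger regulators of endoderm rose, and their early levels varied widely. Here gata5.L read 10.84, 11.13 and 11.06 in late gastrulae, against 6.17, 4.08 and 8.92 in early gastrulae and gata6.L 11.57, 11.61 and 11.65 in late gastrulae, against 6.32, 3.16 and 8.84 in early gastrulae, rises of 4.62 ± 1.07 and 5.50 ± 1.23 (adjusted p = 0.0334 and 0.0307). Without replicate 1 the adjusted p was 0.136 for gata5.L and 0.123 for gata6.L. With gata4.L, at 11.29, 11.86 and 11.96 in late gastrulae, against 7.01, 3.04 and 9.55 in early gastrulae, the arrays of the stages did not overlap either. Its change of 5.17 ± 1.44 lay just outside the threshold (adjusted p = 0.0504, or 0.045 without the replicate block). Sox17, the core endodermal HMG factor, was high throughout: sox17a.S read 11.56, 11.44 and 11.25 in late gastrulae, against 10.49, 9.19 and 10.49 in early gastrulae and rose by 1.36 ± 0.35 (adjusted p = 0.0427; -0.35 when centred on the ribosomal protein genes), and sox17a.L averaged 11.22 in late gastrulae and 10.39 in early gastrulae (adjusted p = 0.0884).

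Ectoderm genes are described by the lists of neural plate, border and epidermis, measured over the whole embryo. Neural plate genes numbered 54 measured gene copies, of which 30 rose, 7 fell and 17 did not pass the test, with a median change of 2.15 (0.44 centred on the ribosomal protein genes). The HMG factors of neural precursors moved in opposite directions. Sox2 read 12.22, 11.84 and 11.55 in late gastrulae, against 7.81, 7.93 and 6.94 in early gastrulae for its L copy, a rise of 4.31 ± 0.18 (adjusted p = 0.00479), while sox3.L, which has a maternal supply, read 12.79, 12.95 and 12.96 in late gastrulae, against 14.05, 13.81 and 14.12 in early gastrulae, a fall of 1.09 ± 0.11 (adjusted p = 0.00698). Geminin, an inhibitor of replication licensing that also holds neural cells undecided, fell in both copies, by 1.24 ± 0.19 for gmnn.L and 1.30 ± 0.15 for gmnn.S. Among regional genes of the plate, several rose from low early levels. The hindbrain boundary gene gbx2.2.L read 9.47, 9.03 and 8.51 in late gastrulae, against 2.30, 2.32 and 2.30 in early gastrulae, the forebrain gene fezf2.L read 8.79, 7.55 and 7.77 in late gastrulae, against 2.36, 2.51 and 2.13 in early gastrulae and the hindbrain gene meis3.L read 10.68, 10.20 and 10.38 in late gastrulae, against 4.27, 3.30 and 4.19 in early gastrulae. The Hedgehog effector gli3.L read 8.69, 8.34 and 8.66 in late gastrulae, against 2.07, 2.07 and 2.09 in early gastrulae, close to the floor in each early array. The eye field gene rax.L differed between replicates: it read 8.01 in late replicate 1 and 2.84 in late replicate 2, with a late mean of 4.78, against 2.41, 2.43 and 2.40 in early gastrulae, so it was high in 1 late array and low in the other 2 (adjusted p = 0.18). Neuronal genes were mixed, since elavl3.L, an RNA-binding protein gene of newborn neurons, rose by 4.84 ± 0.28 (adjusted p = 0.00487), and tubb3.L stayed at the floor with 2.08 in late and 2.12 in early gastrulae.

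The list for neural border, crest and placodes held 47 measured gene copies, of which 25 rose, 3 fell and 19 did not pass the test, with a median change of 1.66 (-0.05 centred on the ribosomal protein genes). The paired-box gene pax3 marks this border, and pax3.S read 9.00, 8.37 and 8.85 in late gastrulae, against 2.07, 2.47 and 2.45 in early gastrulae, a rise of 6.41 ± 0.28 (adjusted p = 0.00479). The highest probe set of pax3.L was already well above the floor before, at 13.18, 13.59 and 13.02 in late gastrulae, against 11.13, 9.44 and 10.82 in early gastrulae. All 4 probe sets of pax3.L were called higher, by 2.80 to 6.74, and this probe set had the smallest rise. The contrast between the copies therefore depends on the probe set. Msx1, a homeobox gene downstream of BMP and Wnt, rose by 6.78 ± 0.55 in msx1.L. Of the crest genes, foxd3.S read 8.83, 9.44 and 9.67 in late gastrulae, against 6.77, 6.45 and 8.08 in early gastrulae and snai2.S 6.08, 5.49 and 5.74 in late gastrulae, against 2.07, 2.09 and 2.07 in early gastrulae, both called (adjusted p = 0.013 and 0.00479), though foxd3.S was not when centred on the ribosomal protein genes (adjusted p = 0.253). The L copy of snai2 was not called (adjusted p = 0.094), with 4.97, 2.79 and 2.87 in late gastrulae, against 2.09, 2.10 and 2.07 in early gastrulae, and averaged 8.40 in early neurulae. The 3 copies that fell were foxi4.2.S and both copies of ets1, an ETS factor, with ets1.S lower by 2.63 ± 0.20 (adjusted p = 0.00536).

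Epidermal genes held the largest rise of a named gene copy. That list held 53 measured gene copies, of which 29 rose, 10 fell and 14 did not pass the test, with a median change of 1.65 (-0.06 centred on the ribosomal protein genes). Keratin genes led it: krt70.L read 14.63, 14.23 and 13.94 in late gastrulae, against 5.50, 2.30 and 3.78 in early gastrulae, a rise of 10.41 ± 0.62 (adjusted p = 0.00487), and krt12.4.S read 13.84, 12.82 and 13.03 in late gastrulae, against 4.85, 2.08 and 3.90 in early gastrulae, a rise of 9.62 ± 0.44. Keratins are a family of similar genes, so their probe sets may take up each other's RNA. The 4 probe sets of krt7.L disagreed, with changes from -0.71 to 7.32. Only 1 of them fell (adjusted p = 0.00847), and that probe set, of the highest mean level, stands for krt7.L here. The lectin gene of secretory skin cells, itln1.L, read 12.25, 10.41 and 9.69 in late gastrulae, against 2.07, 2.11 and 2.11 in early gastrulae and averaged 13.70 in early neurulae. Regulators rose as well: dlx3.L read 10.49, 10.26 and 10.02 in late gastrulae, against 3.00, 2.07 and 3.52 in early gastrulae. The regulator gata2.L was already above the floor early and read 13.36, 13.11 and 12.79 in late gastrulae, against 7.16, 4.60 and 8.09 in early gastrulae. A claudin gene of tight junctions, cldn6.1.S, fell by 1.54 ± 0.15 (adjusted p = 0.00668). The list of ciliated cells and ionocytes held 24 measured gene copies, of which 10 rose, 5 fell and 9 did not pass the test, with a median change of 1.03 (-0.68 centred on the ribosomal protein genes). Here foxj1.S, the master gene of motile cilia, read 10.29, 10.79 and 10.56 in late gastrulae, against 6.17, 6.04 and 6.07 in early gastrulae, a rise of 4.45 ± 0.18 (adjusted p = 0.00479). The cement and hatching gland list held 10 measured gene copies, of which 9 rose, 0 fell and 1 did not pass the test, with a median change of 5.32 (3.61 centred on the ribosomal protein genes). Its first member ag1.S, a secreted cement gland protein, read 11.04, 10.53 and 11.02 in late gastrulae, against 2.61, 2.74 and 3.30 in early gastrulae.

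Signalling genes moved in both directions. The Wnt list held 52 measured gene copies, of which 25 rose, 5 fell and 22 did not pass the test, with a median change of 0.63 (-1.08 centred on the ribosomal protein genes). The receptors fzd10.S and ror2.L read 10.58, 9.67 and 9.78 in late gastrulae, against 2.47, 2.60 and 3.00 in early gastrulae and 11.38, 10.88 and 11.26 in late gastrulae, against 3.02, 2.86 and 5.30 in early gastrulae, rises of 7.32 ± 0.35 and 7.45 ± 0.59 (adjusted p = 0.00479 and 0.00551). The target factor sp5.L rose by 7.35 ± 0.16, and the secreted Wnt antagonist frzb2.L and the Dkk receptor kremen2.S by 5.67 ± 0.73 and 6.12 ± 0.19. The co-receptor lrp5.L fell by 2.97 ± 0.45 (adjusted p = 0.0133), and beta-catenin itself showed 0.37 ± 0.20 in ctnnb1.L, outside the threshold (adjusted p = 0.188), as were its other 2 probe sets. BMP genes numbered 42 measured gene copies, of which 19 rose, 8 fell and 15 did not pass the test, with a median change of 0.38 (-1.32 centred on the ribosomal protein genes). The ligand bmp4.S read 12.43, 12.48 and 12.45 in late gastrulae, against 10.15, 9.28 and 9.76 in early gastrulae, and its paralog bmp7.1.L rose by 6.45 ± 0.45, while the receptor gene bmpr1a.S fell by 1.47 ± 0.16 (adjusted p = 0.00796). FGF genes numbered 33 measured gene copies, of which 10 rose, 5 fell and 18 did not pass the test, with a median change of 0.54 (-1.17 centred on the ribosomal protein genes), and the ligand fgf8.L was not called at 12.29, 12.28 and 12.13 in late gastrulae, against 13.13, 12.25 and 12.87 in early gastrulae (adjusted p = 0.122), with its 3 probe sets between -0.51 and 0.41. Of the FGF copies 30.3% rose and 15.2% fell, against 24.9% and 31.7% of all probe sets. Notch genes held 19 measured gene copies, of which 13 rose, 1 fell and 5 did not pass the test, with a median change of 1.45 (-0.26 centred on the ribosomal protein genes), with the ligand dll1.L rising by 2.25 ± 0.51 (adjusted p = 0.031, or 0.17 centred on the ribosomal protein genes) and the DNA-binding partner rbpj.S falling by 1.22 ± 0.11 (adjusted p = 0.00601). Retinoic acid genes held 20 measured gene copies, of which 12 rose, 3 fell and 5 did not pass the test, with a median change of 1.76 (0.05 centred on the ribosomal protein genes). There cyp26c1.S, which degrades retinoic acid, read 8.85, 8.54 and 8.29 in late gastrulae, against 2.07, 2.21 and 2.07 in early gastrulae, and aldh1a2.L, which makes it, averaged 11.61 in late and 11.44 in early gastrulae (adjusted p = 0.0988) by its highest probe set, while all 5 of its probe sets were higher late, by 0.17 to 3.87, and 2 were called. The 3 probe sets of cyp26c1.S were higher late by 0.53 to 6.44, and 2 were called.

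Cadherins showed which adhesion genes were supplied early and which came on. The adhesion and matrix list held 49 measured gene copies, of which 25 rose, 1 fell and 23 did not pass the test, with a median change of 0.92 (-0.79 centred on the ribosomal protein genes). N-cadherin, the cadherin of neural plate, read 8.86, 7.77 and 7.94 in late gastrulae, against 2.65, 2.07 and 2.07 in early gastrulae for cdh2.L, a rise of 5.93 ± 0.20 (adjusted p = 0.00479). E-cadherin, of epidermis, read 10.10, 4.83 and 10.22 in late gastrulae, against 4.67, 2.08 and 7.13 in early gastrulae for cdh1.S, a rise of 3.75 ± 0.66 (adjusted p = 0.0178), with late replicate 2 overlapping the early arrays and no call without the replicate block (adjusted p = 0.168). The maternal C-cadherin was high at both stages: cdh3.L averaged 13.61 in late gastrulae and 13.55 in early gastrulae, a difference of 0.06 ± 0.11 (adjusted p = 0.636), and cdh3.S 11.41 in late and 11.30 in early gastrulae. Cadherin 11 of mesenchyme rose by 5.44 ± 0.32 in cdh11.S. Fibronectin, on which mesoderm migrates, was abundant at both stages, with 13.46 in late and 13.02 in early gastrulae for fn1.S (adjusted p = 0.0183), a rise that turned into a fall (-1.27) when centred on the ribosomal protein genes.

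**Figure D3:**
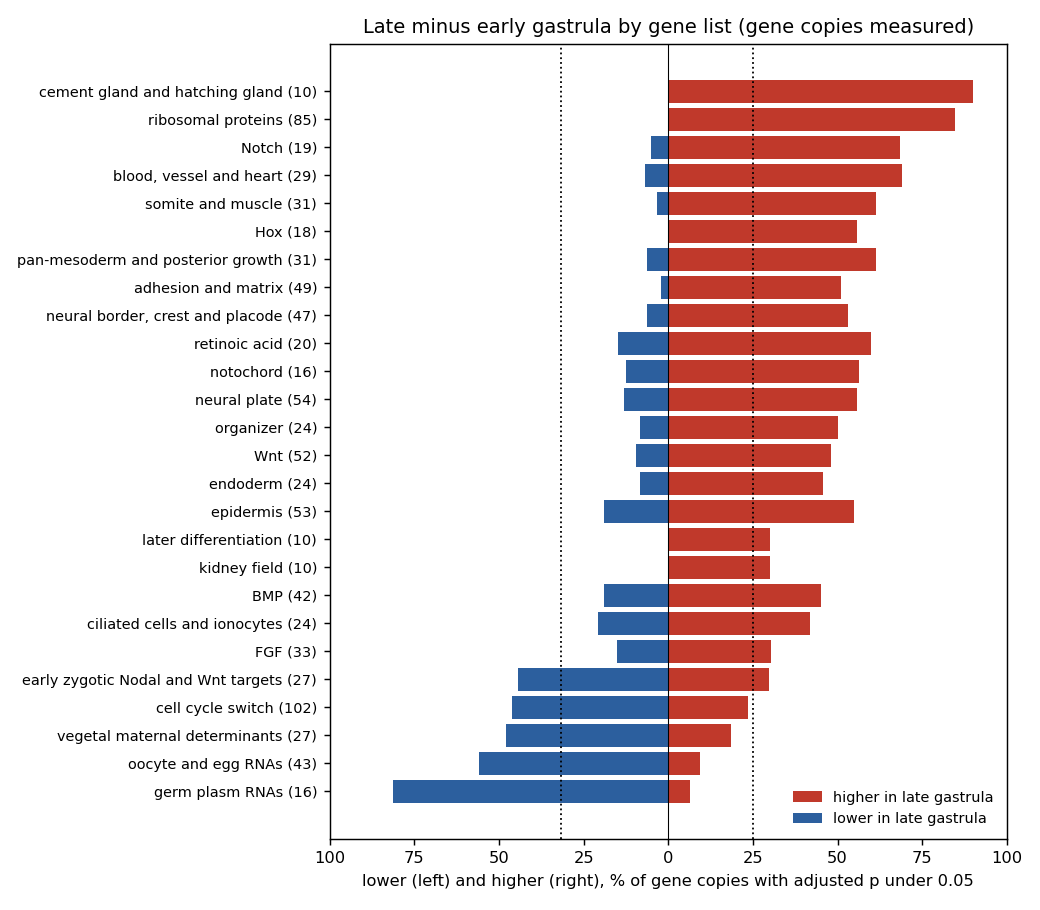
Share of the gene copies of each list that passed the test, as higher (red, to the right) and lower (blue, to the left) in late than in early gastrulae, with the number of gene copies beside the name. Dotted lines mark the shares over all 23630 probe sets, 24.9% higher and 31.7% lower.

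Blood, vessel and heart genes numbered 29 measured gene copies, of which 20 rose, 2 fell and 7 did not pass the test, with a median change of 2.15 (0.44 centred on the ribosomal protein genes). The apelin receptor gene aplnr.S, of vessel and heart precursors, read 10.94, 10.58 and 10.49 in late gastrulae, against 9.39, 6.68 and 6.84 in early gastrulae. Heart genes of later stages had hardly begun, with isl1.S at 2.55 in late and 2.40 in early gastrulae and nkx2-5.S at 2.55 in late and 2.09 in early gastrulae, and 6.08 in early neurulae. Kidney field genes numbered 10 measured gene copies, of which 3 rose, 0 fell and 7 did not pass the test, with a median change of 1.66 (-0.05 centred on the ribosomal protein genes), with irx1.L the largest rise, at 3.70 ± 0.26 (adjusted p = 0.0052). The share of kidney field copies that rose was 30.0%, near the 24.9% of all probe sets.

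The 25 named gene copies with the largest rises also held genes outside these lists. A gap junction gene, gjb2.L, read 13.41, 13.62 and 13.70 in late gastrulae, against 4.72, 5.06 and 5.59 in early gastrulae, a rise of 8.45 ± 0.16 (adjusted p = 0.00479). This probe set can also take up RNA of related genes, and the other probe set of gjb2.L rose by 4.33. The zinc transporter slc30a8.L read 13.04, 12.81 and 11.64 in late gastrulae, against 4.97, 2.32 and 3.00 in early gastrulae, and the growth factor gene ptn.L (pleiotrophin) 12.40, 11.77 and 11.69 in late gastrulae, against 5.35, 3.12 and 3.84 in early gastrulae. Both were lowest in early replicate 2. The otogelin-like gene otogl2.L rose by 9.47 ± 0.39 and olfm4.L, of the secreted olfactomedins, by 8.12 ± 0.49. The copy called gby.L, for which no role is given here, rose by 9.70 ± 0.36, with 12.87, 11.82 and 11.63 in late gastrulae, against 2.32, 2.35 and 2.55 in early gastrulae.

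Turning to the RNAs that fell, the list of early zygotic genes, drawn up around Nodal and maternal Wnt signalling, held members that moved in both directions. This list held 27 measured gene copies, of which 8 rose, 12 fell and 7 did not pass the test, with a median change of -0.93 (-2.64 centred on the ribosomal protein genes). The share that fell was 44.4%, against 31.7% over all probe sets. The Nodal-related ligands ended near the floor. The nodal2.L arrays read 2.32, 2.42 and 2.42 in late gastrulae, against 9.23, 8.23 and 9.37 in early gastrulae, a fall of 6.55 ± 0.33 (adjusted p = 0.00479), and nodal1.L read 2.13, 2.12 and 2.29 in late gastrulae, against 7.98, 6.76 and 7.32 in early gastrulae. For sia1.L, 2.07, 2.07 and 2.07 in late gastrulae, against 7.02, 6.47 and 6.41 in early gastrulae was a fall of 4.57 ± 0.19 (adjusted p = 0.00479), with every late array at the floor. The family member nodal.L fell less, by 1.71 ± 0.36 (adjusted p = 0.0258, or 0.0528 in the fit of all 9 water arrays), and read 6.41, 6.79 and 6.94 in late gastrulae, against 8.99, 8.03 and 8.26 in early gastrulae. The Mix and Bix homeobox genes, direct Nodal and VegT targets, fell without reaching the floor. Here mix1.L read 8.97, 9.63 and 9.82 in late gastrulae, against 12.78, 10.98 and 12.82 in early gastrulae, a fall of 2.72 ± 0.55 (adjusted p = 0.0244), and bix1.2.S fell by 5.28 ± 0.57 (adjusted p = 0.00761). Nodal and Bix genes lie in families of near-identical copies, and their probe sets may share RNA. The 8 members that rose were 5 ventx copies, pou5f3.1.L and both copies of znf750, and none was a Nodal, Siamois, Mix or Bix gene. Of these, ventx1.1.S, a BMP target, read 11.78, 11.94 and 11.29 in late gastrulae, against 9.30, 8.08 and 9.95 in early gastrulae, and pou5f3.1.L, an Oct factor, read 12.48, 12.75 and 12.19 in late gastrulae, against 10.29, 7.72 and 10.02 in early gastrulae, a rise of 3.13 ± 0.72 (adjusted p = 0.0326).

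RNAs known from the oocyte and egg supplied several of the largest falls. That list held 43 measured gene copies, of which 4 rose, 24 fell and 15 did not pass the test, with a median change of -0.97 (-2.67 centred on the ribosomal protein genes). Cpeb1 binds the cytoplasmic polyadenylation element of stored RNAs, and cpeb1.L read 3.49, 3.80 and 4.78 in late gastrulae, against 10.44, 12.37 and 10.03 in early gastrulae, a fall of 6.93 ± 0.74 (adjusted p = 0.00746). Btg4, known in the mouse as an adaptor for deadenylation of maternal RNA, read 3.61, 5.62 and 5.90 in late gastrulae, against 11.95, 13.40 and 11.59 in early gastrulae for btg4.L, a fall of 7.27 ± 0.62. For both genes early replicate 2 was the highest array. The egg's inhibitor of the anaphase-promoting complex, fbxo43 (Emi2), was counted in the cell cycle list and not in this one. Its copy fbxo43.S read 2.07, 2.07 and 2.07 in late gastrulae, against 9.51, 11.05 and 9.17 in early gastrulae. This was a fall of 7.84 ± 0.47 (adjusted p = 0.00487), with all late arrays at the floor. Its homeolog fbxo43.L fell by 6.62 ± 1.04 (adjusted p = 0.0143) and stood at 8.04 in early neurulae. The kinase gene mos.L, which holds the egg in metaphase, fell by 2.50 ± 0.27 but stayed at 9.59. Other egg RNAs hardly moved on the deposited scale. Of these, zar1.S, a gene needed for the egg-to-embryo step in the mouse, averaged 8.77 in late gastrulae and 8.78 in early gastrulae (adjusted p = 0.985), and the egg-coat gene zp2.L 10.42 in late and 10.46 in early gastrulae. Centred on the ribosomal protein genes both were called lower, with -1.71 for zar1.S and -1.75 for zp2.L (adjusted p = 4.59e-05 and 1.07e-05). Because egg RNA was not on these arrays, a maternal origin is taken from gene names and not measured.

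**Figure D4:**
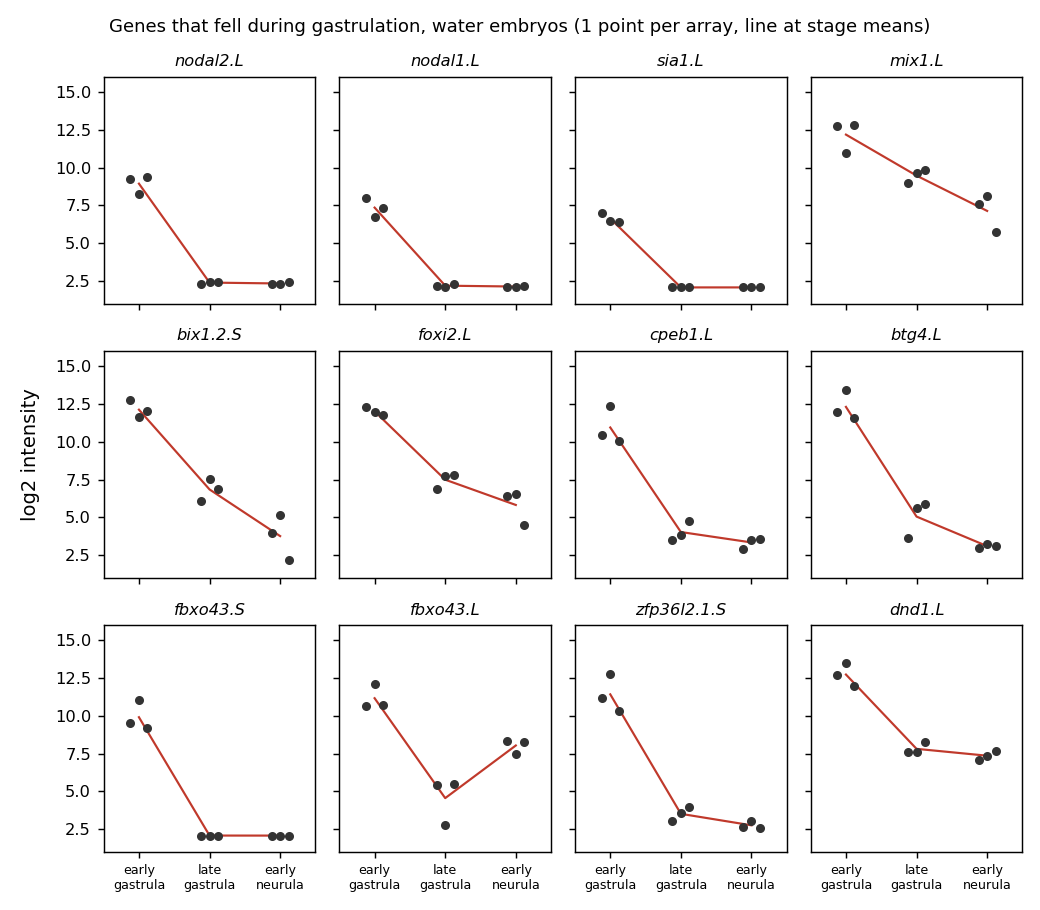
Log2 intensity of 12 genes that fell, by stage (early gastrula, late gastrula, early neurula) in water embryos; each point is 1 array of 3 per stage and the line joins stage means. In each gene every late gastrula array lay below every early gastrula array, and fbxo43.L was higher again in early neurulae. The 12 were chosen as genes that fell in these same arrays, so the lack of overlap is a description only.

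Other RNAs among the largest falls came from outside the lists of maternal genes. The zinc finger proteins of the zfp36l2 group bind AU-rich elements and destabilise RNAs, and zfp36l2.1.S read 3.03, 3.53 and 3.97 in late gastrulae, against 11.18, 12.79 and 10.31 in early gastrulae, a fall of 7.92 ± 0.66 (adjusted p = 0.00572). Its relative zfp36l2.2.L fell by 6.75 ± 0.44, and btg3.S, of the BTG family, by 6.73 ± 0.76. Birc7, an inhibitor of apoptosis, read 2.44, 3.63 and 3.82 in late gastrulae, against 9.26, 10.39 and 8.72 in early gastrulae for birc7.S. The transcriptional repressor bcl6.L fell by 6.83 ± 0.56, and map1lc3c.L, of the autophagy LC3 family, by 6.005 ± 0.59 (adjusted p = 0.00674). The largest fall of any named copy, 8.57 ± 0.44 (adjusted p = 0.00479), belonged to LOC398162, which has no other name in the annotation and read 3.02, 4.41 and 3.44 in late gastrulae, against 11.92, 13.74 and 10.93 in early gastrulae. The centrosome protein gene ssx2ip.S fell by 5.93 ± 0.40 and the ubiquitin ligase gene trim2.L by 5.92 ± 0.54. In each of these 9 genes all 3 early arrays lay above all 3 late ones. They were chosen for large falls in these same arrays, so this is a description only.

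Germ plasm and vegetal RNAs fell with them, unevenly. The list of germ plasm RNAs, which mark the future germ cells, held 16 measured gene copies, of which 1 rose, 13 fell and 2 did not pass the test, with a median change of -2.08 (-3.79 centred on the ribosomal protein genes). The germ cell protector dnd1.L read 7.59, 7.61 and 8.25 in late gastrulae, against 12.69, 13.52 and 12.01 in early gastrulae, a fall of 4.92 ± 0.48 (adjusted p = 0.00671), and sybu.S, the syntabulin gene, needed in zebrafish to move the dorsal determinant, fell by 5.06 ± 0.32 to the floor. The meiotic gene dazl.L fell by only 1.46 ± 0.21 (adjusted p = 0.0116), and ddx4.L, the Vasa helicase, rose by 0.50 ± 0.09 (adjusted p = 0.018, or 0.0909 without the replicate block), or changed by -1.21 when centred on the ribosomal protein genes. The list of vegetal and other maternal determinants held 27 measured gene copies, of which 5 rose, 13 fell and 9 did not pass the test, with a median change of -0.997 (-2.71 centred on the ribosomal protein genes). The ectodermal determinant foxi2.L read 6.89, 7.77 and 7.81 in late gastrulae, against 12.31, 11.96 and 11.78 in early gastrulae, a fall of 4.53 ± 0.35 (adjusted p = 0.00543), and foxh1.L, the Smad partner of Nodal signalling, fell by 2.54 ± 0.27. The Vg1 gene gdf1.S fell by 2.46 ± 0.11 (adjusted p = 0.00479).

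Related genes of the cell cycle moved in unlike ways. The cell cycle list held 102 measured gene copies, of which 24 rose, 47 fell and 31 did not pass the test, with a median change of -0.42 (-2.13 centred on the ribosomal protein genes). Its largest fall, 7.84, was that of fbxo43.S, described above with the egg RNAs. The egg's A-type cyclin ccna1.L read 8.25, 10.34 and 10.31 in late gastrulae, against 14.31, 14.94 and 14.36 in early gastrulae, a fall of 4.90 ± 0.46 (adjusted p = 0.00637), against a fall of 0.70 ± 0.12 for the somatic ccna2.L (adjusted p = 0.0163). The G1 cyclin ccnd1.L went the other way with 12.61, 11.96 and 12.18 in late gastrulae, against 7.91, 5.12 and 8.83 in early gastrulae, a rise of 4.96 ± 0.77 (adjusted p = 0.0139), and early replicate 2 was the lowest. Of the kinases that restrain Cdk1, the egg form wee2.L read 7.85, 8.37 and 8.45 in late gastrulae, against 11.91, 12.58 and 11.34 in early gastrulae, a fall of 3.72 ± 0.32 (adjusted p = 0.00589), and wee1.L read 10.59, 10.23 and 10.39 in late gastrulae, against 8.00, 6.33 and 8.08 in early gastrulae, a rise of 2.93 ± 0.38 (adjusted p = 0.0101). B-type cyclins showed the same unlikeness, with ccnb1.S falling by 5.22 ± 0.23 and ccnb3.S rising by 3.15 ± 0.38 (adjusted p = 0.00479 and 0.00885). The replication helicase subunit mcm3.L fell by 3.57 ± 0.30, and mcm6.2.L, the zygotic form of Mcm6 in Xenopus, rose by 3.52 ± 0.18 (adjusted p = 0.00571 and 0.00479). Unlike changes were also seen outside the cycle in the Oct genes, where the maternal-type pou5f3.3.L fell by 5.23 ± 0.46 (adjusted p = 0.00596) against the rise of pou5f3.1.L given above. The egg linker histone h1-8.S, which fell by 1.76 ± 0.33, remained at 12.27 (adjusted p = 0.0201).

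**Figure D5:**
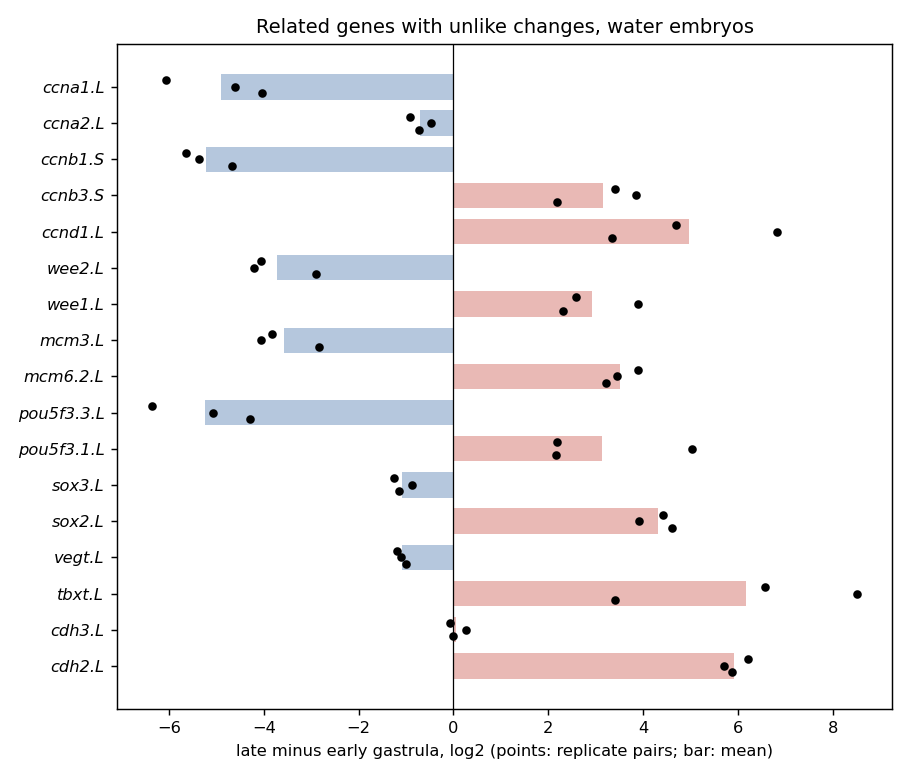
Late minus early gastrula change on the log2 scale in each replicate pair (3 points per gene, bar at the mean) for related genes that moved in unlike ways. Points right of 0 are higher in late gastrulae; ccna1.L, ccna2.L, wee2.L, ccnb1.S, mcm3.L, pou5f3.3.L, sox3.L and vegt.L lie left of 0 in every pair, and ccnd1.L, wee1.L, ccnb3.S, mcm6.2.L, pou5f3.1.L, sox2.L, tbxt.L and cdh2.L right of it.

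Ribosomal protein genes mostly rose. They numbered 85 measured gene copies, of which 72 rose, 0 fell and 13 did not pass the test, with a median change of 1.35. Their median level per array was 12.32 to 12.72 in late gastrulae and 10.54 to 10.97 in early gastrulae, without overlap. The spiked hybridization controls averaged 11.66 to 11.78 in late gastrulae and 11.51 to 11.64 in early gastrulae, so they too were somewhat higher late. Centred on all ribosomal protein probe sets, the median change of the list, which takes 1 probe set per gene copy, was -0.36.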

How the data were processed

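RNA of water-injected X. laevis embryos was taken at 3 stages, with 3 arrays per stage. The authors read the scanner files with Bioconductor, took log2 of the intensities and normalized the arrays by quantiles; these log2 values make up the deposited table. Background correction and probe summarization are not given in the sources used here. Arrays carry no count or depth. Their small number limits the precision, as do values at the floor and probe sets that may take up RNA of related genes.

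The table held 23701 probe sets, of which 71 Affymetrix controls were left out and 23630 were tested. The platform annotation gave 1 gene symbol to 12258, several to 228 and none to 11144, for 9149 named gene copies. RefSeq identifiers matched 12182 symbols and updated 2. Where a gene copy had more than 1 probe set, that of highest mean level stood for it in the lists. Gene copies among the 25 largest rises and 25 largest falls are instead described by their probe set with the largest change. Probe sets with _s_at or _x_at in their names, among them those used for actc1.L, bmp4.S, dll1.L, dlx3.L, fgf8.L and gjb2.L, can take up RNA of related genes. No sequence is printed.

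Late and early gastrulae were compared with limma 3.58.1 in R 4.3.3 (linear model, moderated test with an intensity trend, Benjamini-Hochberg over all probe sets, adjusted p under 0.05), with the replicate number as a block and only the 6 arrays in the fit. The paper describes its replicates as covering variation between egg clutches, without saying that equal numbers at different stages mean the same clutch. Arrays with the same number deviated together from their stage means (correlations of 0.460 to 0.524, against -0.353 to -0.191 for different numbers). Nothing in the labels gives other sources of spread. With the block, p-values rest on the spread of the late minus early differences across replicate pairs, moderated over all probe sets. Level differences shared by both arrays of a pair are taken out. The script was tested on simulated data. Summaries and plots used Python 3.11.15, pandas 2.3.3 and matplotlib 3.10.9.

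Named genes were the 25 largest rises and 25 largest falls among called probe sets with 1 symbol, the same sign in all 3 pairs and a mean of at least 6 at one stage, up to 4 largest rises and falls of each gene list, and genes that define a list. From these, and from lists, those described were selected, and some other list members were added after their values were seen. The members and lists were chosen with earlier results of these data known. Alternatives were the fit without the block, all 9 water arrays, no trend, the methods' Student test, filters on low values, 3 other scalings, other floor thresholds and leaving out each replicate.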

Additional observations from a re-analysis of the deposited data

How the results depend on the processing

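Removing the replicate block gave 5217 probe sets higher and 6490 lower, against 5878 and 7480 with it. Among the genes described it ended the calls of cdh1.S, ddx4.L and tbxt.S and added those of eomes.S and gata4.L. The methods' Student test with Benjamini-Hochberg adjustment gave 4481 higher and 5790 lower, and at an unadjusted p under 0.05 it gave 5480 and 7064. After adjustment it ended the calls of aplnr.S, cdh1.S, cer1.S, ddx4.L, dll1.L, gata5.L, gata6.L, hoxa2.S, hoxc10.L, nkx2-5.S, sox17a.S and tbxt.S (adjusted p of 0.0527 to 0.254) and added hoxd13.S, a change of -0.05. The fit of all 9 water arrays, the fit without a trend, the filters on low means, a second quantile normalization and centring on the hybridization controls (chosen after the data were seen) kept both counts within 1.5 times. The 9-array fit ended the calls of hba3.L, nkx2-5.S, nodal.L and vegt.S (adjusted p of 0.0528 to 0.353), the fit without a trend those of nkx2-5.S, sox17a.S and tbxt.S (0.0523 to 0.0618) and the hybridization controls those of hba3.L and nkx2-5.S (0.0656 and 0.0966). Calls added by at least 1 of these settings were eomes.S, fgf8.L, gata4.L, gsc.S and sox17a.L. With 1 pair left out, 3107 to 3979 probe sets were higher and 4125 to 4841 lower, 453 to 555 were switched on and 218 to 307 fell to the floor. Of the genes described, 33 lost their call without replicate 1, 16 without replicate 2 and 23 without replicate 3, with adjusted p up to 0.161, 0.0914 and 0.12. Those lost in at least 1 of these fits of 2 pairs were aplnr.S, btg3.S, ccna2.L, ccnb3.S, ccnd1.L, cdh1.S, cdx1.S, cer1.S, chrd.1.S, ddx4.L, dll1.L, ets1.L, fbxo43.L, fn1.S, foxd3.S, foxi4.2.S, frzb2.L, gata2.L, gata5.L, gata6.L, gmnn.L, h1-8.S, hba3.L, hoxa2.S, hoxc10.L, lrp5.L, mix1.L, mos.L, myod1.L, nkx2-5.S, nodal.L, pax3.L, pou5f3.1.L, shh.L, sox17a.S, tbxt.L, tbxt.S, tf.L, vegt.S, ventx1.1.S and wee1.L. Over these fits the change ranged from -0.042 to 0.128 for cdh3.L, from -0.103 to 0.024 for zp2.L, from -0.057 to 0.079 for zar1.S and from -0.00026 to 0.069 for hbg1.L, with no call. Centring on the ribosomal protein genes gave 1863 higher, 18490 lower, 107 switched on and 586 that fell to the floor. It turned the median change of 11 lists: BMP (-1.32), FGF (-1.17), Notch (-0.26), Wnt (-1.08), adhesion and matrix (-0.79), ciliated cells and ionocytes (-0.68), epidermis (-0.060), kidney field (-0.047), later differentiation (-1.59), neural border (-0.054) and ribosomal proteins (-0.36). It also turned aldh1a2.L (-1.54), cdh3.L (-1.65), cdh3.S (-1.60), ctnnb1.L (-1.34), ddx4.L (-1.21), fn1.S (-1.27), hba3.L (-1.34), hbg1.L (-1.66), hoxa11.S (-1.47), hoxb2.S (-1.31), isl1.S (-1.56), myf6.S (-1.48), nkx2-5.S (-1.26), snai2.L (-0.25), sox17a.L (-0.87) and sox17a.S (-0.35). It ended the calls of chrd.1.S, dll1.L, foxd3.S and hoxa2.S (adjusted p of 0.07 to 0.398), whose changes stayed positive, and added, beside turned genes, falls of acta1.S, eomes.S, fgf8.L, gap43.L, gsc.L, gsc.S, hoxd13.S, serpina1.L, serpina1.S, tubb3.L, zar1.S and zp2.L and the rise of gata4.L. Centring on the hybridization controls turned later differentiation (-0.0088), cdh3.L (-0.060), cdh3.S (-0.010) and hbg1.L (-0.078). A mean of at least 6 over the 6 arrays left 77 switched on and 14 that fell to the floor, since that filter removes probe sets low at 1 stage. Thresholds of under 3.5 and at least 7 gave 206 and 31, and under 5 and at least 6 gave 641 and 437. For early neurula minus late gastrula, 0 probe sets passed in limma (smallest adjusted p 0.0704), and alternatives chosen after the data were seen gave 123 without the replicate block, 3890 with all 9 water arrays and 0 without a trend or with 1 pair left out. The causes of these shifts were not tested. Values at the floor set only a lower limit to a change, and with 3 pairs per comparison a gene that missed the threshold was not shown to be unchanged.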

Other observations

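The change between the stages was also set against that of embryos given Gam1 mRNA at the same stages. In limma the difference of the 2 changes passed an adjusted p under 0.05 for 2 of 23630 probe sets, neither with a gene name here, and 1100 had an unadjusted p under 0.05. Among 153 gene copies chosen for description, 0 passed the adjusted threshold and 13 had an unadjusted p under 0.05.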
